A study of Rattus norvegicus with 6 samples.

Results

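Cytochrome P450 enzymes need heme as their cofactor and electrons from redox partners, and 9 genes of these supply routes were followed in rat liver: 5 enzymes of heme synthesis (Alas1, Alad, Urod, Cpox and Fech) and 4 genes of electron supply (Por, Cyb5a, Cyb5r3 and Pgrmc1). They were chosen by name, and every non-control array probe whose RefSeq transcript carries one of these names was taken. All 9 were found, by 14 of the 61657 non-control probes, and all 9 passed the filter on dim probes that left 27642 genes. The livers came from 3 male Sprague-Dawley rats given 400 mg/kg/day of TCEP, which is tris(2-chloroethyl) phosphate, a flame retardant, and from 3 male Sprague-Dawley rats given corn oil, the vehicle. Sprague-Dawley is an outbred stock, all rats were bought at 5 weeks of age and ate the same basal diet, and each animal gave 1 array. Dosing lasted 9 weeks by the treatment protocol but 28 days by the design text. The question is whether the genes that support P450 enzymes follow the P450 genes whose levels were higher in TCEP livers.

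Heme synthesis begins and ends in the mitochondrion, with the middle steps in the cytosol. Alas1 catalyses the first step, which sets the pace in liver, and its gene is repressed by heme and known to be induced by drugs that act through the nuclear receptors CAR and PXR. In the endoplasmic reticulum Por passes electrons from NADPH to the P450 enzymes, and cytochrome b5, the product of Cyb5a, can donate a further electron that it takes from Por or from the NADH-dependent reductase encoded by Cyb5r3. Pgrmc1 encodes a heme-binding membrane protein known to bind P450 enzymes.

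Signals are given as log2 of the processed spot signal relative to the 75th percentile of the array, so 0 is the signal of that percentile and 1 unit is a doubling. Levels are not compared between genes, brightness serving only to choose a gene's probe and some genes to name, and each difference is TCEP minus corn oil in log2 units. Between 61.6% and 64.4% of probes per TCEP array and between 57.2% and 63.7% per corn oil array were well above background. The lowest was corn oil replicate 2. It was scanned 23 days after the others and was the only 1 of the 6 arrays on its slide. All TCEP arrays were on 1 slide and the corn oil arrays on 2 others, so slide and treatment cannot be told apart. All 14 probes were well above background on all 6 arrays, with 0 saturated and 0 outlier spots. The hepatocyte markers were bright in both groups, with 12 of 12 measured. Whole tissue was measured, so fewer cells of a type and less RNA per cell cannot be told apart.

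No gene of the 9 passed the threshold over all genes. Of the 9 genes, 7 had a higher and 2 a lower mean in TCEP livers, while over all genes 50.9% had a higher mean. The median difference was 0.20 for the 9 genes and 0.005 for all genes. Groups did not overlap in 3 of the 9 genes, against 17.4% of all genes. Pgrmc1, Cyb5a and Urod had every TCEP value above every corn oil value, as had 10.3% of all genes, and 0 of the 9 had all TCEP values below, against 7.06% of all genes. In limma, 0 of the 9 genes and 0% of all genes had an adjusted p under 0.05, and 1 member was higher (Cyb5a) and 1 lower (Por) at an unadjusted p under 0.05, together 2 members against 9.2% of all genes, and 5.01% higher and 4.19% lower. Without corn oil replicate 2, that is within the first scan day, 3 members lay above and 1, Por, lay below all corn oil values, where 15.4% and 12.6% of all genes did so. With 1 array left out at a time the count above ran from 3 to 6, and the share of all genes above from 13.5% to 17.2%. Both were highest without corn oil replicate 3. Groups separate more easily with 1 array fewer, for all genes alike. The plot of the 9 genes by animal shows these values.

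**Figure D1:**
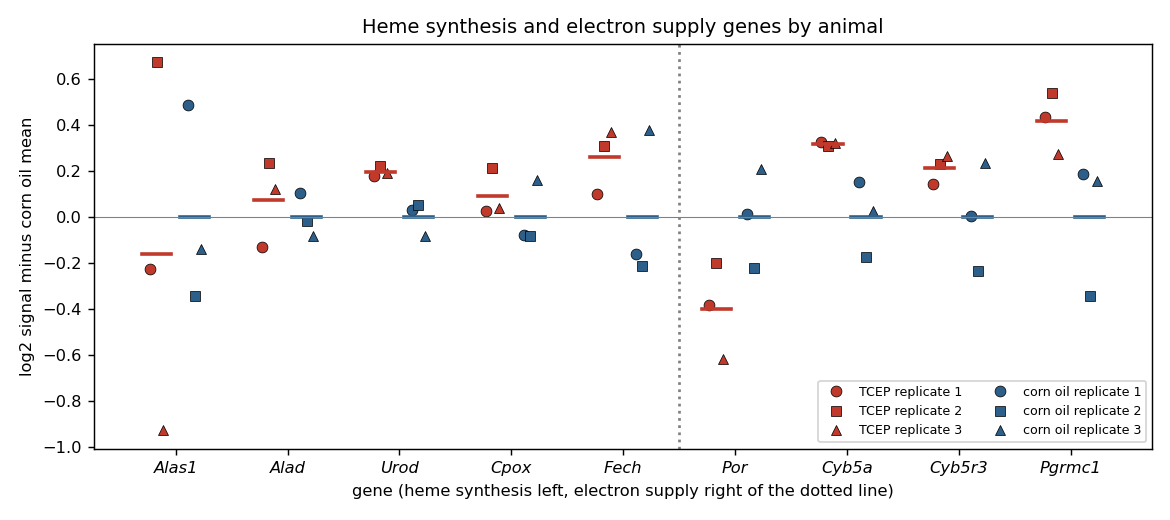
Log2 signal of each gene minus its corn oil mean (y axis), with the 5 heme synthesis genes left and the 4 electron supply genes right of the dotted line. Points are single animals, short bars are group means, TCEP is red and corn oil blue. Urod, Cyb5a and Pgrmc1 have TCEP points above all corn oil points, and Alas1 has the widest TCEP spread (SD 0.80, n = 3).

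Heme synthesis begins with Alas1, and its level varied more between animals than between groups. Its signals were 6.67, 7.57 and 5.97 in TCEP replicates 1, 2 and 3, against 7.38, 6.55 and 6.76 in corn oil replicates 1, 2 and 3. The highest and the lowest of the 6 values were both TCEP animals, so the TCEP values enclose those of corn oil. The mean was 6.73 ± 0.80 in TCEP livers and 6.90 ± 0.43 in corn oil livers (SD, n = 3 each), a difference of -0.16 ± 0.43 (SE, limma adjusted p = 0.928). Its 95% interval ran from -1.20 to 0.88. The sign turned with single animals. Leaving out TCEP replicate 3 gave 0.22, leaving out corn oil replicate 1 gave 0.08, and leaving out TCEP replicate 2 gave -0.58. The promoter window of Alas1, from 250 bases before to 50 after the start in the RefSeq table of rat assembly GRCr8 (chr8:115768593-115768892, minus strand), is shown because Alas1 is the pacing step and its window holds the only match among these genes to the consensus of NRF1, in capitals.

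Alas1 promoter: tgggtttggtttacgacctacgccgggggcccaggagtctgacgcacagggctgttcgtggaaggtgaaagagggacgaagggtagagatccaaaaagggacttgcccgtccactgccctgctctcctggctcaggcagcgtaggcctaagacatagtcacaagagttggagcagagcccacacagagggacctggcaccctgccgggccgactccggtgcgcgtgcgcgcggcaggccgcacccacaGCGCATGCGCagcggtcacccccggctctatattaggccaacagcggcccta

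The second enzyme, Alad, joins molecules of aminolevulinic acid into the pyrrole porphobilinogen. Its signals were 8.14, 8.50 and 8.39 in TCEP livers, against 8.37, 8.25 and 8.19 in corn oil livers. The groups overlapped, with TCEP replicate 1 the lowest of the 6 arrays. The difference was 0.07 ± 0.13 (SE), with a 95% interval from -0.23 to 0.38 (limma adjusted p = 0.878), and it ran from -0.00508 when TCEP replicate 2 was left out to 0.18 when TCEP replicate 1 was. It was 0.03 without corn oil replicate 3.

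Urod removes carboxyl groups from uroporphyrinogen in the cytosol. Its brighter probe read 5.51, 5.56 and 5.53 in TCEP livers, against 5.37, 5.39 and 5.26 in corn oil livers. The groups did not overlap, TCEP being higher, and the TCEP animals differed from each other by less than the corn oil animals (SD 0.02 and 0.07, n = 3 each). The mean was 1.15-fold higher in TCEP livers, a log2 difference of 0.20 ± 0.09 (SE) with a 95% interval from -0.02 to 0.41 (limma adjusted p = 0.556). The other Urod probe gave 4.38, 4.52 and 4.41 in TCEP livers, against 4.29, 4.30 and 4.24 in corn oil livers, again without overlap, and a difference of 0.16 ± 0.09 (SE). With quantile normalization the Urod difference was 0.09, less than at the 75th percentile by over 1.5 times.

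Cpox oxidises coproporphyrinogen in the mitochondrion. Its signals were 1.58, 1.77 and 1.59 in TCEP livers, against 1.48, 1.48 and 1.72 in corn oil livers. Corn oil replicate 3 lay above TCEP replicates 1 and 3, so the groups overlapped. The difference was 0.09 ± 0.11 (SE, limma adjusted p = 0.826). It ran from 0.03 without TCEP replicate 2 to 0.17 without corn oil replicate 3, and was 0.23 with normexp background correction.

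Fech, ferrochelatase, inserts iron into protoporphyrin at the last step. Its signals were 1.62, 1.82 and 1.89 in TCEP livers, against 1.35, 1.30 and 1.89 in corn oil livers. Corn oil replicate 3 lay just above the highest TCEP animal, while the other corn oil animals lay below all TCEP animals. The difference was 0.26 ± 0.18 (SE), with a 95% interval from -0.19 to 0.70 (limma adjusted p = 0.687). Leaving out corn oil replicate 3 gave 0.45, and leaving out corn oil replicate 2 gave 0.15.

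Among the electron carriers Por was the member with the lowest difference. Its signals were 2.97, 3.15 and 2.73 in TCEP livers, against 3.37, 3.13 and 3.56 in corn oil livers. The groups overlapped through 1 pair: TCEP replicate 2 lay just above corn oil replicate 2, and all other TCEP values lay below all corn oil values. The mean was 2.95 ± 0.21 in TCEP livers and 3.36 ± 0.21 in corn oil livers (SD, n = 3 each), or 1.32-fold lower in TCEP livers. The difference of -0.40 ± 0.16 (SE) had a 95% interval from -0.79 to -0.01, an unadjusted p of 0.0449 and a limma adjusted p of 0.536. The exact permutation test over the 6 arrays, two-sided, gave p = 0.2, where the smallest p that 3 against 3 animals allow is 0.1. With 1 array left out the difference stayed below 0, lowest when corn oil replicate 2 was left out (-0.51) and highest when TCEP replicate 3 was (-0.29).

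Cyb5a, cytochrome b5, ran the other way. Its signals were 7.18, 7.16 and 7.18 in TCEP livers, against 7.01, 6.68 and 6.88 in corn oil livers. The TCEP animals were nearly equal (SD 0.01, n = 3), the corn oil animals spread more widely (SD 0.17, n = 3), and the groups did not overlap. The mean was 1.25-fold higher in TCEP livers, a log2 difference of 0.32 ± 0.11 (SE) with a 95% interval from 0.05 to 0.59 (limma adjusted p = 0.521, unadjusted 0.0276). Corn oil replicate 2 was the lowest array, and without it the difference was 0.23 ± 0.10 (SE).

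Cyb5r3, the reductase that charges cytochrome b5 from NADH, had 2 probes. The brighter read 4.32, 4.40 and 4.44 in TCEP livers, against 4.18, 3.94 and 4.41 in corn oil livers, with an overlap through corn oil replicate 3. Its difference was 0.21 ± 0.14 (SE, limma adjusted p = 0.665) and that of the other probe 0.30 ± 0.15. Corn oil replicate 2 was again the lowest array, and without it the difference of the brighter probe was 0.09, against 0.33 without corn oil replicate 3.

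Pgrmc1 had the highest difference of the 9 genes and the most probes, 4. The brightest read 7.83, 7.93 and 7.67 in TCEP livers, against 7.58, 7.05 and 7.55 in corn oil livers. In each of the 4 probes every TCEP animal exceeded every corn oil animal. The differences of the 4 probes were 0.41, 0.38, 0.44 and 0.51, and probes of 1 gene share the same RNA and are not replicates. The brightest probe was 1.33-fold higher in TCEP livers, with a log2 difference of 0.41 ± 0.17 (SE), a 95% interval from -0.001 to 0.83 and a limma adjusted p of 0.540. Without corn oil replicate 2 the difference of this probe was 0.24 ± 0.12 (SE), lower by over 1.5 times. The exact permutation test gave p = 0.1 for Pgrmc1, Cyb5a and Urod, the smallest p possible here.

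The promoter windows of Por (chr12:26635760-26636059, minus strand) and Pgrmc1 (chrX:120698360-120698659, plus strand) in GRCr8 are shown because these genes had the lowest and the highest difference. Capitals, in the Alas1 window too, mark matches to 6 motifs searched on both strands: the NRF1 consensus, whose letters are those in capitals in the Alas1 window, GGGCGG (the GC box bound by Sp1), AGGTCA and AGTTCA (half-sites of nuclear receptors), CACGTG (the E-box) and TATAAA (the TATA box). The window of Por lies at a start inside the annotated gene, so other starts of the gene are not covered.

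Por promoter: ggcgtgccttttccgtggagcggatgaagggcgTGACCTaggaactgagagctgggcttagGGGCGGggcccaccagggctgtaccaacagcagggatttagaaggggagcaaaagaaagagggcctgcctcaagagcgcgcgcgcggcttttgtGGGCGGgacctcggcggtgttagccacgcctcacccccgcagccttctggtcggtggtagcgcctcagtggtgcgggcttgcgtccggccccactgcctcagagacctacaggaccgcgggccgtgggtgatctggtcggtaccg
Pgrmc1 promoter: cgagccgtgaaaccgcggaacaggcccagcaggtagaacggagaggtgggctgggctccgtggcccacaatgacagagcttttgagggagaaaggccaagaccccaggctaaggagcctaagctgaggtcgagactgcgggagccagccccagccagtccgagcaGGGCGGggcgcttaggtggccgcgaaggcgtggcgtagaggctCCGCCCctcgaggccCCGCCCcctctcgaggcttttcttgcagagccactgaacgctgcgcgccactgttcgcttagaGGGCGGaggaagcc

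The table held windows for 8 of the 9 genes, all but Cpox. GGGCGG matched in 7 of the 8 windows, against 33.1% of all 33469 promoter windows of the same length. The window without it was that of Alas1, which alone of the 8 held the NRF1 consensus, found in 0.852% of all windows. AGGTCA matched in 1 of 8, Por, against 16.2% of all windows, and AGTTCA in 1 of 8, Cyb5a, against 14.5%. CACGTG matched in 2 of 8, Alad and Urod, against 6.42% of all windows, and TATAAA in 0 of 8, against 14.2%. A match is a description of letters and not of binding, and the windows of Pgrmc1, Cyb5a and Urod shared GGGCGG with that of Por.

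The other side of the comparison is a list of 10 genes chosen from the Cyp2b, Cyp2c and Cyp3a subfamilies of P450. CAR and PXR are known to induce several of them, and they were listed with earlier results of these arrays known. The other measured Cyp2c genes were placed with the other microsomal P450 genes. These were Cyp2c11 (0.49), Cyp2c12 (-0.47), Cyp2c13 (-0.11), Cyp2c22 (-0.74) and Cyp2c23 (-0.12). Of the 10 listed genes, all measured, 6 had all TCEP values above all corn oil values (10.3% of all genes). The same 6 had an unadjusted p under 0.05 (5.01% of all genes), and 0 passed the adjusted threshold in limma. Cyp2b2, a hydroxylase of steroids and drugs and the gene with the highest difference, read 7.52, 6.97 and 7.18 in TCEP livers, against 6.34, 5.03 and 5.86 in corn oil livers, a difference of 1.48 ± 0.34 (SE, limma adjusted p = 0.443). Cyp3a23-3a1, Cyp3a9, Cyp2b1, Cyp2c6v1 and Cyp3a2 had differences of 1.28, 1.13, 0.75, 0.72 and 0.44. Cyp3a62, Cyp3a18, Cyp2b3 and Cyp2c7 overlapped between groups, with 0.11, 0.10, -0.06 and -0.17. Close paralogs such as Cyp2b1 and Cyp2b2 can share probe signal, so their separate values are uncertain. The plot of differences sets these 10 genes under the 9 support genes: by the brightest probe each of the 9 had a difference under that of Cyp3a2, the lowest of the 6, but the Pgrmc1 probes at 0.44 and 0.51 were above it.

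**Figure D2:**
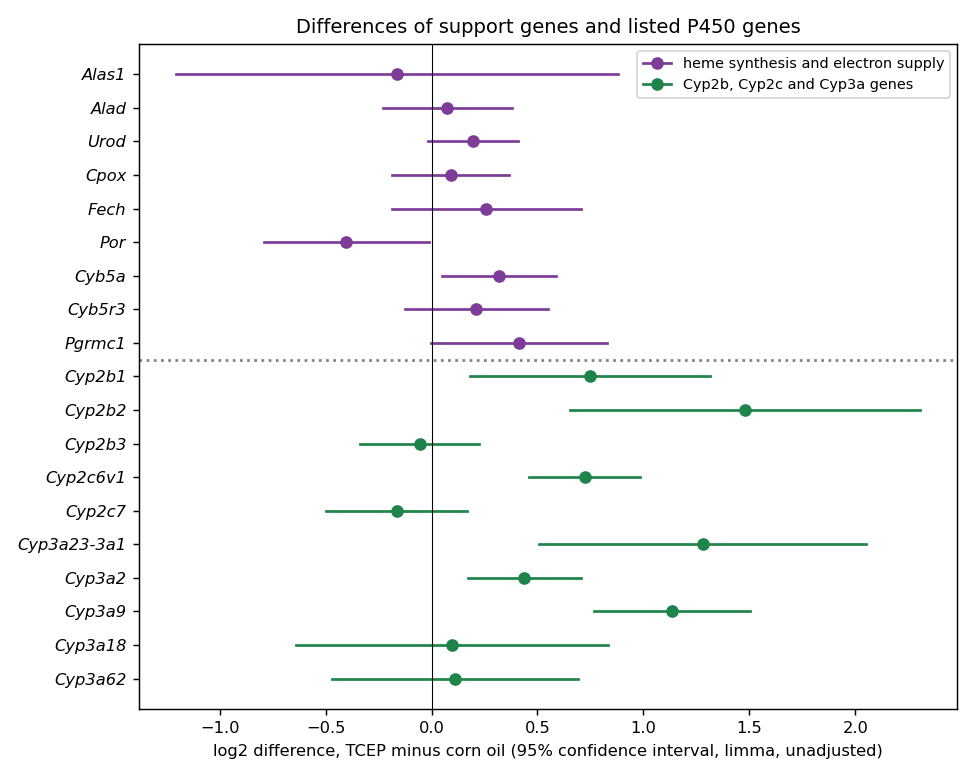
Log2 difference, TCEP minus corn oil (x axis), with its unadjusted 95% interval from limma, for the 9 support genes (purple) and the 10 listed P450 genes (green). The support genes lie between -0.40 (Por) and 0.41 (Pgrmc1), and 6 P450 genes lie between 0.44 and 1.48.

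Por and Alas1 were set against each of the 10 P450 genes by the log2 ratio of the signals within each array, 20 ratios in all. Such a ratio shows unequal change and does not show which gene changed. All 10 Por ratios were lower in TCEP livers, and in 7 the 3 TCEP ratios lay below all 3 corn oil ratios. The 10 share the same Por values and are not separate results. The P450 genes that themselves had every TCEP value above corn oil are all among those 7. How often another gene in place of Por would give such ratios was not tested. Relative to the corn oil mean, the ratio of Por to Cyp2b2 was -2.16, -1.43 and -2.06 in TCEP replicates 1, 2 and 3, against -0.58, 0.49 and 0.09 in corn oil replicates 1, 2 and 3, a difference of -1.88 ± 0.39 (SE, exact permutation p = 0.1, adjusted over the 20 ratios 0.222). The ratio to Cyp3a23-3a1 differed by -1.68 ± 0.42, to Cyp3a9 by -1.54 ± 0.28, to Cyp2b1 by -1.15 ± 0.24, to Cyp2c6v1 by -1.12 ± 0.21 and to Cyp3a2 by -0.84 ± 0.17 (SE). Cyp2b3, whose own difference was near 0, gave a ratio without overlap too, -0.35 ± 0.11 (SE). The 3 ratios that overlapped were those to Cyp3a62, Cyp3a18 and Cyp2c7, at -0.51, -0.50 and -0.24. With 1 array left out, the 10 Por ratios kept their sign.

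For Alas1, 9 of 10 ratios were lower in TCEP livers and 2 did not overlap, those to Cyp2b2 (-1.64 ± 0.59, SE) and Cyp3a23-3a1 (-1.44 ± 0.61, SE). The 10 share the same Alas1 values and are not separate results. How often another gene in place of Alas1 would give such ratios was not tested. The ratio to Cyp3a9 differed by -1.30 ± 0.58 and that to Cyp2b1 by -0.91 ± 0.60 (SE), both with overlap. The ratio to Cyp2c7 was nearly equal in both groups, with a difference of 0.003 ± 0.54 (SE). The smallest adjusted p of the 20 ratios was 0.222 by the exact permutation test, so 0 passed, and a design of 3 against 3 could not pass. Within the first scan day, without corn oil replicate 2, the ratio of Por to Cyp2b2 differed by -1.64 and that of Alas1 to Cyp2b2 by -1.46.

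**Figure D3:**
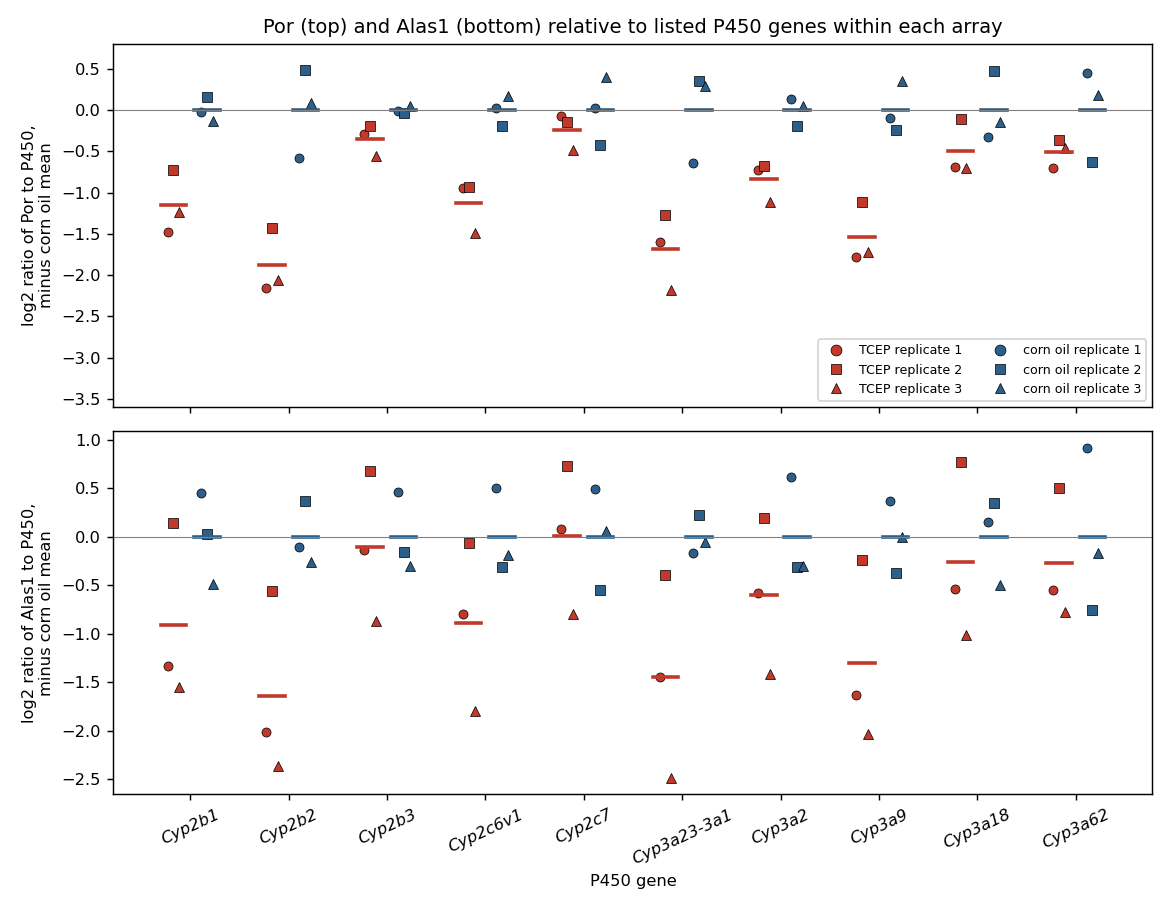
Log2 ratio of Por (top) and Alas1 (bottom) to each of 10 P450 genes within each array, minus the corn oil mean of that ratio (y axis). Points are animals, short bars are group means, TCEP is red and left of corn oil, blue. The Por ratios of all TCEP animals lie below those of all corn oil animals for 7 P450 genes, and the Alas1 ratios for 2.

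Por, the lowest member, was also set against its fellow support genes, a comparison added after the values were seen. Its within-array ratio was lower in TCEP livers against each of the other 8 genes, with no overlap in 7, the exception being Alas1 (-0.24 ± 0.42, SE). Against Pgrmc1 the ratio differed by -0.82 ± 0.10, against Cyb5a by -0.72 ± 0.16 and against Cyb5r3 by -0.61 ± 0.14 (SE). Against the heme enzymes it differed by -0.66 for Fech, -0.60 for Urod, -0.49 for Cpox and -0.48 for Alad. Each of the 7 had an exact permutation p of 0.1, or 0.114 adjusted over the 8 ratios. Since Por was picked as the lowest member, its mean ratios were bound to be lower, so these p-values are not a test. The ratios share the same Por values and are a description of its distance from the others.

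The animal with the highest or lowest value differed from gene to gene within TCEP livers, where replicate 2 was the highest of its group in 6 of 9 genes and replicate 1 the lowest in 5. Within corn oil livers replicate 2 was the lowest in 7 of 9 genes, with a median deviation from the group mean of -0.21 over the 9 genes. This is the array with the lowest share of probes well above background, and the part of array quality in these differences was not tested. Leaving it out moved the differences of Cyb5r3, Pgrmc1, Fech, Cpox and Alas1 by over 1.5 times, to 0.09, 0.24, 0.15, 0.05 and -0.33, as the plot with 1 array left out shows.

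**Figure D4:**
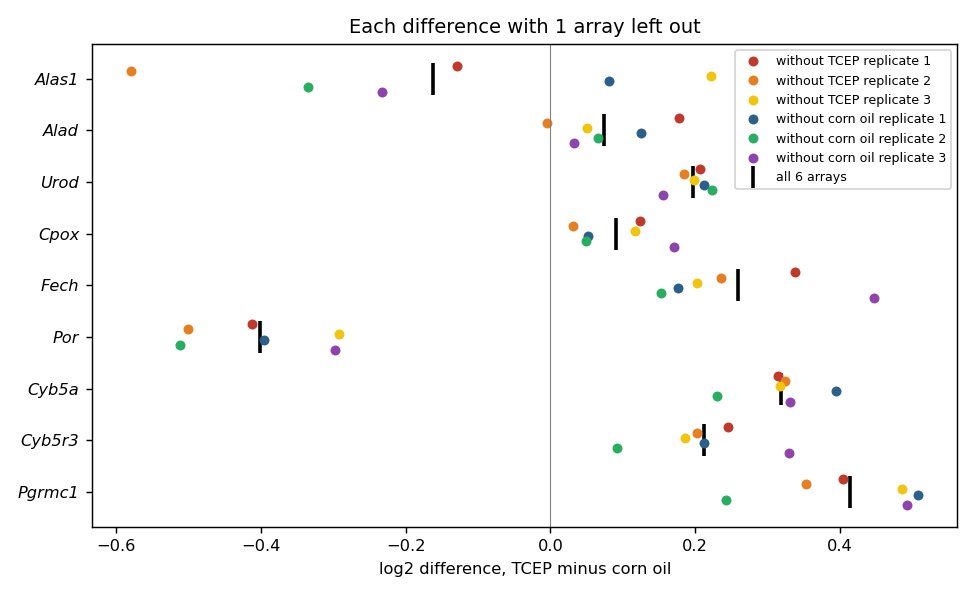
Log2 difference, TCEP minus corn oil (x axis), of each gene over all 6 arrays (black bar) and with 1 array left out (coloured points). Alas1 and Alad have points on both sides of 0, and the other 7 genes keep their sign, with Por between -0.51 and -0.29.

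Across the 6 arrays, the genes with a symbol whose values were most like those of Por by Pearson's r were Rab4a (0.999), Enpp2 (0.989), Ddx6 (0.986), Psma3 (0.983) and Apc (0.982), out of 10976 compared. For Alas1 they were Myoz1 (0.992), Gucd1 (0.987), Slc25a16 (0.980), Yes1 (0.980) and Uba1 (0.977). With only 6 arrays of 2 groups many genes reach such values: 36 had r over 0.95 with Por and 13 with Alas1.

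Among other steps of the same pathways, 0 genes passed the adjusted threshold in limma. Genes without overlap, all higher, were 1 of 10 in mitochondrial transport and iron supply, 1 of 4 in heme transport and 2 of 5 in heme breakdown. They were 2 of 10 among other electron carriers, 2 of 4 in NADPH supply and 1 of 11 among regulators. Of all genes 10.3% were higher without overlap. In heme synthesis Ppox, the oxidase before ferrochelatase, read 1.33, 1.40 and 1.22 in TCEP livers, against 1.34, 0.96 and 0.99 in corn oil livers, a difference of 0.22 ± 0.13 (SE) with overlap. Of 10 genes of mitochondrial transport and iron supply (median 0.03), Abcb6, a porphyrin transporter, had 0.35 ± 0.12 (SE) without overlap. Of 4 genes of heme transport (median 0.16, only 0.0452 when corn oil replicate 3 was left out and reaching 0.29 when corn oil replicate 2 was), Slc46a1, a folate carrier that also carries heme, had 0.49 ± 0.17 (SE) without overlap. Of 5 genes of heme breakdown (median 0.05), Hmox2, the constitutive heme oxygenase that itself takes electrons from Por, had 0.24 ± 0.10 (SE) without overlap.

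Among 10 other electron carriers (median 0.08), Nenf, a relative of Pgrmc1 with a cytochrome b5-like domain, read 3.06, 3.16 and 3.12 in TCEP livers, against 2.63, 2.95 and 2.69 in corn oil livers, a difference of 0.35 ± 0.11 (SE, unadjusted p = 0.0200). No other carrier of that list had an unadjusted p under 0.05. Of 4 enzymes that make NADPH (median 0.10), Me1, the malic enzyme, and Idh1, the cytosolic isocitrate dehydrogenase, had 0.59 ± 0.24 and 0.28 ± 0.10 (SE), both without overlap. Enzymes that draw on cytochrome b5, 6 measured, had a median of 0.07 and a range from 0.004 to 0.11, with Msmo1 and Sc5d, of sterol synthesis, at 0.06 and 0.10. Without corn oil replicate 3 their median was -0.03. Of the 4 other enzymes that draw on Por the median was -0.03, but 0.16 without corn oil replicate 2 and -0.24 without TCEP replicate 2.

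The 32 other microsomal P450 genes measured had a median of 0.01, with 16 higher and 16 lower means. Cyp2c11, a male-specific steroid hydroxylase of rat liver, had 0.49 ± 0.13 (SE) and Cyp7a1, the pacing enzyme of bile acid synthesis, -1.74 ± 0.49 (SE), both without overlap. Of the 32, 2 lay above and 1 below all corn oil values, against 10.3% and 7.06% of all genes. The mitochondrial P450 genes Cyp27a1 and Cyp27b1 had 0.08 and -0.17. Among 8 other hemoproteins (median 0.06), 1 was higher without overlap, against 10.3% of all genes. The brightest, Tdo2, the heme enzyme of tryptophan breakdown, and Sdhd, had -0.30 ± 0.35 and 0.11 ± 0.09 (SE), both with overlap. Among 11 regulators measured (median -0.10), the bile acid receptor Nr1h4 had 0.42 ± 0.16 (SE) without overlap. The receptor genes of PXR and CAR, Nr1i2 and Nr1i3, named after their values were seen, had -0.16 ± 0.21 and -0.19 ± 0.36 (SE).

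**Figure D5:**
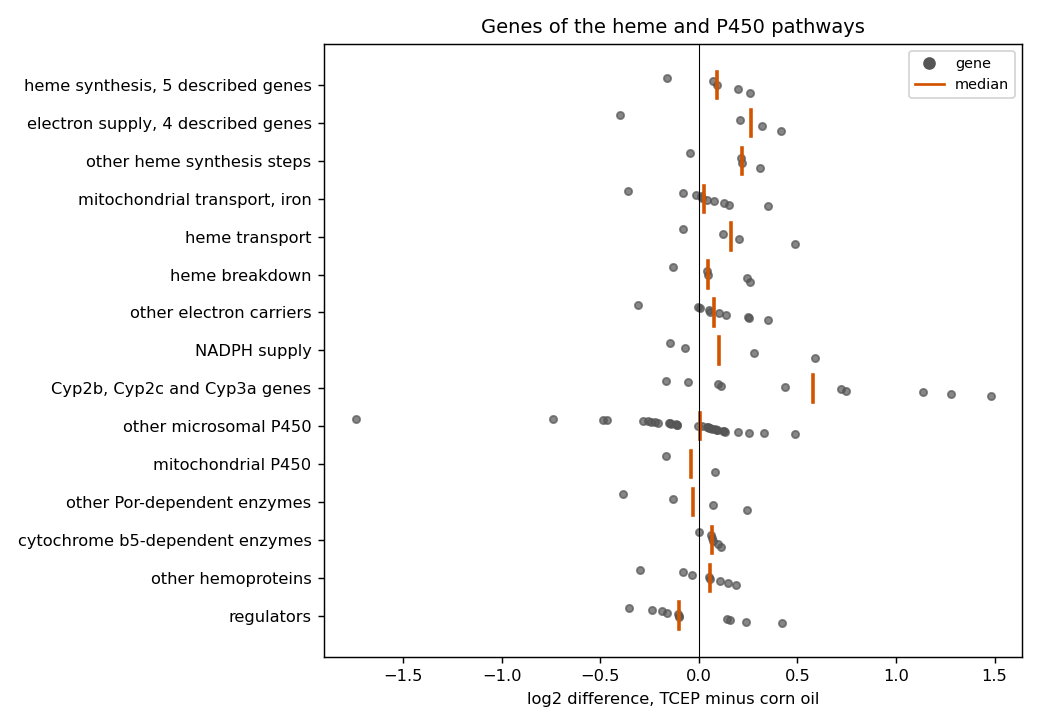
Log2 difference, TCEP minus corn oil (x axis), of each measured gene (grey point) in 15 lists of heme and P450 genes, with the list median (orange). The list of chosen Cyp2b, Cyp2c and Cyp3a genes, made with earlier results known, has the highest of the 15 list medians (0.58). Other measured Cyp2c genes are among the other microsomal P450 genes (median 0.01). The medians of the 4 electron supply and 5 heme synthesis genes are 0.26 and 0.09. Without corn oil replicate 2 the electron supply median is 0.16.

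Red cell precursors also make heme, and erythroid markers were therefore read beside the heme genes. Of 12 markers 8 were measured, and their summed linear signal ran from 811 to 1250 times the 75th percentile in TCEP livers and from 748 to 1159 in corn oil livers. The brightest genes, those of hemoglobin, weigh most in this sum. By single genes, Hba-a1, Hbb, Hbb-b1 and Slc4a1 had differences of -0.04, -0.15, -0.05 and -0.10, and Ahsp had 0.28, each with overlap. The median over all 8 was -0.07, but it includes Rhag, described below, and is not read as a result. Epb42, well above background on all 6 arrays, had -0.88 ± 0.31 with overlap (SE, limma unadjusted p = 0.0270, adjusted 0.521). The defining factors Klf1 and Gata1 were on the array and did not pass the filter on dim probes. Alas2, the erythroid form of the first enzyme, read 0.64, 0.60 and 1.58 in TCEP livers, against 1.21, 1.24 and 0.49 in corn oil livers, a difference of -0.04 ± 0.33 (SE). Rhag, a red cell membrane protein, passed the filter only through corn oil, being well above background on 2 of 3 TCEP arrays and 3 of 3 corn oil arrays, so no difference is given for it. The summed hepatocyte markers ran from 7024 to 7663 in TCEP livers and from 7663 to 7970 in corn oil livers, with 3 of 12 below all corn oil values (7.06% of all genes) and 0 above (10.3%). The brightest, the plasma proteins Tf and Ttr, had -0.15 ± 0.09 and -0.02 ± 0.09 (SE). Macrophage markers, 10 of 10 measured, summed to between 133 and 157 in TCEP livers and between 89.2 and 223 in corn oil livers. Stellate, endothelial and duct markers, 10 of 12 measured, summed to between 29.2 and 31.8 in TCEP livers and between 29.8 and 32.0 in corn oil livers. Among macrophage markers Clec4f and C1qb were the brightest, at -0.12 ± 0.28 and -0.05 ± 0.36 (SE). In the last list Epcam, of duct cells, had 0.52 ± 0.16 and Lrat, of stellate cells, -0.43 ± 0.15 (SE), both without overlap. Of the 10 measured they were the only 1 above and 1 below, against 10.3% and 7.06% of all genes. The other markers of these cells overlapped between groups. Krt19 and Krt7, of duct cells, had 0.50 and -0.27. Col1a1, Col3a1, Des and Pdgfrb, of stellate cells, had -0.11, 0.08, -0.17 and -0.05. The part of cell makeup in the differences of the 9 genes was not tested.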

How the data were processed

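Liver RNA of 6 rats, 3 given TCEP and 3 given corn oil, was hybridised to Agilent 1-colour arrays of 62976 spots. Agilent Feature Extraction 10.7.1.1 made the signals, per the file headers, while the submitters' processing notes give 10.7. The deposited scanner files hold linear intensity values, the processed signal being background-subtracted, and spot flags. A deposited value table holds a ratio, the processed signal over the array's 75th percentile, without gene centring, as the values themselves show. Dim spots aside, its arrays differed from the scanner values by a median of between -0.00236 and -0.000606 log2 units. Around the median of its array, the largest gap was 0.000398 log2 units. Medians per column were 0.0956, 0.0972 and 0.0953 in the TCEP arrays and 0.1005, 0.1035 and 0.0962 in the corn oil arrays. No source used here names any other step.

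From the scanner files, log2 processed signal minus the array's 75th percentile over 61657 non-control probes was computed, with 1319 control spots left out and 64 outlier-flagged spots set to missing. Probes well above background in every array of 1 or both groups were kept (37043). A RefSeq table of assembly GRCr8 named 27460 of the 61657 non-control probes, and a kept probe without a symbol kept the file's own name. Each gene was given by its probe with the highest mean, 27642 genes in all, of which 10982 have a symbol. The design build of the array is older, so coordinates stand only beside RefSeq sequences. The comparison, TCEP minus corn oil, used limma 3.58.1 under R 4.3.3 (lmFit, eBayes; two-sided), Benjamini-Hochberg adjusted over all genes, threshold 0.05, without a block. The fit was tested on simulated data. The number of arrays, 3 per group, limits precision, and the median SE of a difference was 0.14. Replicates are animals, per the labels.

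The members and gene lists were chosen with earlier results of these data known. All 9 members and the measured genes of the Cyp2b, Cyp2c and Cyp3a list are named. From each other list members past the threshold were named, otherwise up to 4 with the smallest unadjusted p under 0.05 and no overlap, otherwise the 2 brightest. 1 result that this rule names is not reported here. Genes whose pattern was most like Por or Alas1 were the 5 with the highest Pearson's r. The added ratios of Por to the other members and the leave-one-out counts of groups without overlap followed after the values were seen. So did naming Nr1i2, Nr1i3, Alas2, Klf1, Gata1, Epb42, Krt19, Krt7, Col1a1, Col3a1, Des and Pdgfrb. The same holds for Hba-a1, Hbb, Hbb-b1, Slc4a1, Ahsp, Cyp2c12, Cyp2c13, Cyp2c22 and Cyp2c23. Alternatives were normexp (median signals, offset 50), centring on the median, quantile normalization, the deposited table, other filters, other uses of probes, robust eBayes with a trend, random slide block, replicate block, keeping outlier spots, and omission of each array. Replicate numbers were not treated as pairing the animals. Deviations of same-numbered animals correlated at -0.05, -0.16 and -0.02, and those of differently numbered animals at between -0.07 and 0.12. With 3 animals per group these values cannot settle whether animals were paired.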

Additional observations from a re-analysis of the deposited data

How the results depend on the processing

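In all 17 alternatives run on genes, 0 of the 9 genes passed the adjusted threshold in limma. Por, Urod, Cpox, Fech, Cyb5a, Cyb5r3 and Pgrmc1 kept their direction in each of the 17, and adjusted p of the 9 genes lay between 0.346 and 0.994. Over these, Por ran from -0.51 to -0.29, Cyb5a from 0.21 to 0.39, Pgrmc1 from 0.24 to 0.51 and Urod from 0.09 to 0.29. Alas1 was 0.22 without TCEP replicate 3 and 0.08 without corn oil replicate 1, and Alad -0.00508 without TCEP replicate 2; with 1 array left out Alas1 ran from -0.58 to 0.22 and Alad from -0.00508 to 0.18. The ratio of Alas1 to Cyp2b3 was 0.00477 with normexp and ran from -0.50 to 0.27 with 1 array left out. Those of Alas1 to Cyp2c7, Cyp3a18 and Cyp3a62 ran from -0.36 to 0.40, -0.77 to 0.12 and -0.66 to 0.19, and that of Por to Alas1 from -0.51 to 0.0778. The cause was not tested. With quantile normalization 1 member, Por, lay below all corn oil values (main 0) and 2 above, against 7.11% and 9.28% of all genes. With 1 array left out 0 to 1 lay below and 3 to 6 above. The shares of all genes were then 10.4% to 15.1% below and 13.5% to 17.2% above.

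With quantile normalization the medians of the NADPH and other hemoprotein lists were 0.0287 and -0.00875. With median centring those of heme breakdown, other hemoproteins and hepatocyte markers were 0.104, 0.114 and -0.0620; the share of all genes with a higher mean was 62.1% then, 40.0% with no filter on dim probes and 50.9% as reported. With 1 array left out the list medians ran from 0.0309 to 0.20 for the 5 heme synthesis genes and 0.0647 to 0.17 for heme breakdown. They ran from 0.49 to 0.63 for the listed Cyp2b, Cyp2c and Cyp3a genes and -0.12 to 0.0296 for other microsomal P450 genes. They ran from 0.16 to 0.33 for the 4 electron supply genes, 0.0452 to 0.29 for heme transport, -0.24 to 0.16 for other enzymes that draw on Por, -0.03 to 0.17 for those that draw on cytochrome b5, and 0.0646 to 0.17 for NADPH. For other carriers they ran from 0.0455 to 0.16, for other hemoproteins from 0.0270 to 0.08 and for mitochondrial transport and iron from 0.02 to 0.08. For regulators they ran from -0.21 to -0.00470 and for macrophage markers from -0.45 to 0.30. For erythroid markers, Rhag included, they ran from -0.36 to 0.06. The replicate block left the Por difference at -0.40 and lowered the genes at an unadjusted p under 0.05 from 2543 to 1901, and of the 9 genes from 2 to 0; it changed no call. The slide as a random block gave -0.41 for Por, and scan day as a block equals leaving out corn oil replicate 2.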
